A study of Mus musculus with 2 samples.

Results

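The Isl1 peaks assigned to Six2, Six4 and the Eya and Dach genes were described in a ChIP-Seq of the embryonic heart region. Isl1 is the LIM-homeodomain transcription factor that marks cardiac progenitors of the second heart field (SHF), and ChIP-Seq maps where it sits on the genome. The genes are Six2, Six4, Eya1, Eya2, Eya3, Eya4, Dach1 and Dach2, and a peak belonged to one of them when the authors' list gave that name as the gene with the closest transcription start site (TSS). Of the 48295 peaks of the list, 70 were assigned to 7 of these 8 genes, and 12972 gene names occur in the list in all.

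The chromatin came from the cardiogenic mesoderm and heart region of C57BL/6 mouse embryos, staged E8.25 to E9, with no mutation or treatment in the labels, and 60 to 80 embryos were pooled. It was crosslinked, sheared to 200 to 500 bp and precipitated with an anti-Isl1 antibody. This 1 ChIP sample was analysed, and the signal of an input taken from the same kind of lysate was not analysed here. The list gives positions, distances and gene names without read counts or peak heights, so the depth is unknown and there was no replicate and no test. Cell markers could not be checked, as peaks are not expression, and a pool of dissected tissue does not tell which cells carried a peak.

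Six2 and Six4 belong to the sine oculis homeobox family, homeodomain transcription factors that bind DNA and recruit Eya proteins, coactivators with a phosphatase domain, while Dach proteins are corepressors related to Ski. The 3 families form a circuit, first described in the eye of the fly, that vertebrates use in the ear, kidney, muscle and pharyngeal region. Eya1 is needed in SHF progenitors during the formation of the outflow tract.

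The sequence under the peaks is described in several of the results, and the 200 bp around the midpoint of the peak closest to the TSS by the distances in the list is therefore shown for 4 of the 7 genes with a peak, with the widest Dach1 peak added. All are forward-strand mm9 sequences, and capitals mark the longest uninterrupted run of purines (A and G) or pyrimidines (C and T).
Eya2 closest peak, chr2:165424601-165424800: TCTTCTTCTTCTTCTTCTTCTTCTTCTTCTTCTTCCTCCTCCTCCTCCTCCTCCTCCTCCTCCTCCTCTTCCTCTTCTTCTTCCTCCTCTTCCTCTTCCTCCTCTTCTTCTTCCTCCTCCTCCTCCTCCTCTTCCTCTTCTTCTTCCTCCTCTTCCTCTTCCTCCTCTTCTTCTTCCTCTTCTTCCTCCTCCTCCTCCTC
Eya4 closest peak, chr10:23076651-23076850: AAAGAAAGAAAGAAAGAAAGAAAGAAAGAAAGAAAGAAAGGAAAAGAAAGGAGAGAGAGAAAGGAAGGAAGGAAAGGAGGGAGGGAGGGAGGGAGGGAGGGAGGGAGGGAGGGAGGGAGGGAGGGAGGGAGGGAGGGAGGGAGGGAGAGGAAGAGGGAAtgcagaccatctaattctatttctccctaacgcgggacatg
Dach1 closest peak, chr14:98600747-98600946: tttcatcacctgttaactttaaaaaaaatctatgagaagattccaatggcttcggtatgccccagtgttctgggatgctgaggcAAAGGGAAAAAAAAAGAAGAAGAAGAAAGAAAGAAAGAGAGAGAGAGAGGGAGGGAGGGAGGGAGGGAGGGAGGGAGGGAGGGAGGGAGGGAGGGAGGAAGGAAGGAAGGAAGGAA
Dach1 widest peak, chr14:97853812-97854011: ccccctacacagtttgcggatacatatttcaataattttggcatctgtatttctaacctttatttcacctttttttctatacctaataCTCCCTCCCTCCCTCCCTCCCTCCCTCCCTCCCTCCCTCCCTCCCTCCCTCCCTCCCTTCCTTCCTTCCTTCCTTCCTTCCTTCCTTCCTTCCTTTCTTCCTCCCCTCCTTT
Dach2 closest peak, chrX:110451108-110451307: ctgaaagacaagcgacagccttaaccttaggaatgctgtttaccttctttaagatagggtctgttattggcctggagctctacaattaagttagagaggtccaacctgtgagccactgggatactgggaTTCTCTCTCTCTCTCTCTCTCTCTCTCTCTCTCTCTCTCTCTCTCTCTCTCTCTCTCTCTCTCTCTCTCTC
Each of these 5 windows is built around simple repeats of a few bases, and the Eya2 window consists of such sequence over all 200 bases. That Eya2 peak is closest to a start that GENCODE does not hold, and from the nearest GENCODE start of Eya2 it lay 56.1 kb away, the farthest of the 8 Eya2 peaks.

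Six2 was the exception, since its closest peak lay over its TSS in sequence without such a run. The 200 bp around the midpoint of that peak held no TAAT on either strand. Instead, the 148 bases of the peak upstream of the start are shown. Capitals mark TAAT or its reverse complement ATTA, the core recognised by many homeodomain proteins. Over the whole peak, 82.8% of the list had TAAT.
Six2 upstream of the start, chr17:86087595-86087742: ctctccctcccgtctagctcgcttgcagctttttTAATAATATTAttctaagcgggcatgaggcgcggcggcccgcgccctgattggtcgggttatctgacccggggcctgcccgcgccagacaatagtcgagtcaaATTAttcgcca

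At least 1 peak was assigned to 7 of the 8 genes, against 45.5% of the 22219 protein-coding genes. The count of all genes is a lower bound, as 10119 of the names in the list were found among the annotated protein-coding genes. At least 6 peaks, a limit equal to the count of Eya1, were assigned to 6 of the 8 genes, against 7.51% of all genes. The 8 genes were chosen with earlier results of these data known, and these shares do not take the sequence around each gene into account. They are therefore no test of enrichment. Dach1 had 29 peaks and Dach2 had 10, followed by Six2, Eya2 and Eya4 with 8 peaks each, Eya1 with 6 and Six4 with 1. Eya3 had no peak. Only 58 protein-coding genes had more peaks than Dach1, while 892 had more than Six2, Eya2 or Eya4.

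The genes differed in how much sequence could be assigned to them by distance. The sequence closer to a gene's TSS than to that of any other protein-coding gene, called its territory here and including the gene itself, measured 1264 kb for Dach1, 816 kb for Dach2, 556 kb for Eya1 and 484 kb for Eya4. Six2 had 210 kb, Eya2 had 182 kb, Eya3 had 84.3 kb and Six4 had 38.6 kb. The median over all protein-coding genes was 0.0467 Mb, so that Six4 was the one gene of the group below it. Across all 22219 genes the territory and the number of peaks had a Spearman correlation of 0.56, a description of points that come from 1 sample and share their boundaries with their neighbours.

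**Figure D1:**
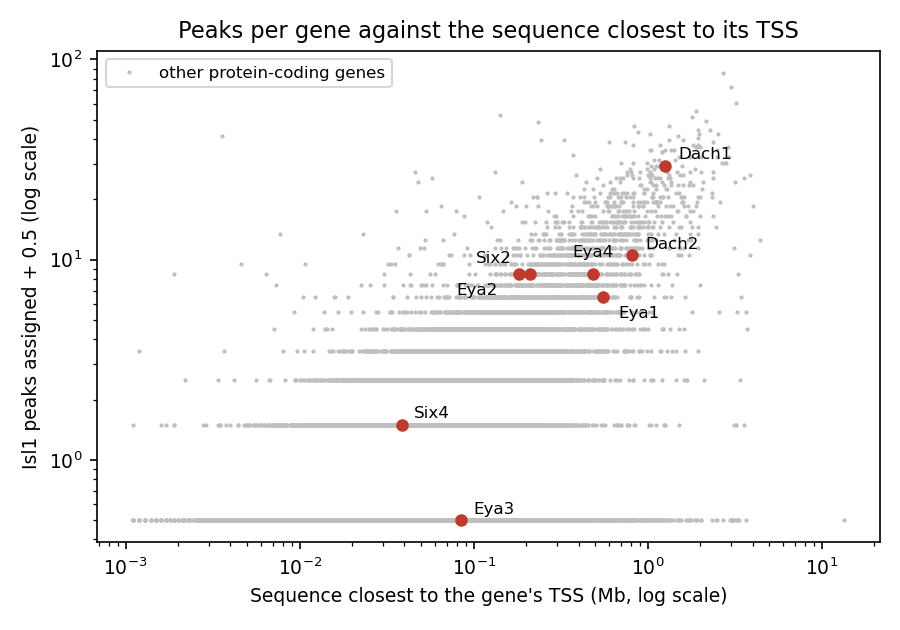
Number of Isl1 peaks assigned to each protein-coding gene, with 0.5 added so that genes without a peak can be drawn on the log scale, against the sequence closest to its TSS in Mb, also on a log scale. Red points are the 8 genes described here and grey points the other genes; Dach1 with 29 peaks lies high and to the right, and Eya3 lies on the bottom line of genes without a peak.

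Per length of territory the order changed. Eya2 came first with 44.0 peaks per Mb and Six2 second with 38.2, both above the median of 24.2 over genes with a peak. Six4 had 25.9 and Dach1 had 23.0 peaks per Mb, close to that median. The values of Eya4, 16.5, Dach2, 12.3, and Eya1, 10.8, were below that median, which leaves out genes without a peak. Over all protein-coding genes, 76.2% had a density at or below that of Dach1. The shares were 68.3% for Eya4, 63.0% for Dach2 and 61.1% for Eya1. Of all genes, 54.5% had no peak, as Eya3 did. All 8 genes together had 19.3 peaks per Mb, beside 18.2 over the whole genome. In these densities and the correlation above, peaks were assigned by the starts of the list but territories were drawn from GENCODE starts. With GENCODE starts for both, the 8 genes had 20.6 peaks per Mb. Dach2 then had 15 peaks, which would place it before Eya4, while Six2 had 7 and Eya1 had 7. These densities carry no replicate error, so neighbours in the order cannot be ranked beyond this list.

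Six2 maintains nephron progenitors in the kidney and Six4 acts in muscle precursors. The 8 Six2 peaks lay on chromosome 17 between 22.4 kb downstream and 217 kb upstream of the TSS, with 5 of them upstream. Closest was the peak at chr17:86087214-86087742, whose midpoint lay 0.116 kb downstream of the TSS and which overlapped the first exon. It was 528 bp wide, had a GC content of 74.1% and 81 CpG dinucleotides, 1.15 times the number expected from its base composition. Its 4 TAAT matches stood 35, 38, 42 and 138 bases upstream of the start, all in the sequence shown above, and none lay in the 381 bases from the start on. Upstream peaks followed at 8.98, 19.1, 51.0, 69.6 and 217 kb. The last of these was closer to Srbd1 than to Six2 when the GENCODE starts were used. The remaining 2 peaks lay 14.9 and 22.4 kb downstream, past the end of this gene of 3.99 kb, in the interval that separates Six2 from Six3.

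Six2 and Six3, a regulator of forebrain and eye development, are transcribed towards each other, and the 74.6 kb between their starts held 6 peaks, 3 assigned to each gene. The Six3 peak closest to a TSS, at chr17:86020137-86020674, lay 0.231 kb downstream of the Six3 start used in the list. The 74.6 kb were measured from the GENCODE gene start of Six3, and from there this peak lay 7.46 kb downstream. Six4 had its single peak on chromosome 12, intergenic and 1.51 kb upstream. It was 848 bp wide and its longest run covered 175 bases. Further upstream of Six4 stood 4 peaks, at -8.20, -17.9, -53.8 and -67.2 kb from its start, that the list assigned to Mnat1, a subunit of the CDK-activating kinase. Six6, an eye and pituitary regulator, had 1 peak, 47.8 kb downstream, and Six5 had none. With GENCODE starts the Six6 peak was closer to 4930447C04Rik than to Six6.

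Eya1, the gene mutated in branchio-oto-renal syndrome, had 6 peaks on chromosome 1, none within 10 kb. There were 4 upstream, at 26.8, 48.2, 97.0 and 129 kb, 1 in an intron 113 kb downstream and 1 beyond the gene 253 kb downstream. Its longest runs were long, with a median of 215 bases and a range from 66 to 282.

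Eya2, expressed in muscle and cranial placodes, had its 8 peaks within a span of 0.0931 Mb on chromosome 2, the most compact set among the genes with several peaks. The distances in the list refer to 3 starts. For 3 peaks the start was at 165420528, for 2 at 165455845 and for 3 at 165480798, and only the last is the start of the annotated gene in GENCODE. Against these starts the peaks lay 4.17, 13.9, 15.9, 10.0, 32.3 and 36.5 kb downstream and 10.7 and 8.29 kb upstream. In the GENCODE annotation, 6 of them were intergenic before the gene, 1 lay in an intron and 1, at chr2:165512850-165513300, overlapped a coding exon. By GENCODE starts the closest Eya2 peak was chr2:165472286-165472741, 8.29 kb upstream. Another peak within the gene, at chr2:165587068-165587423, was assigned to Zmynd8.

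Eya3 was the member without a peak. Its nearest peak, at chr4:132130291-132130701, lay 64.4 kb upstream of the gene and was assigned to Ptafr, the receptor of platelet-activating factor. It was the only peak within 100 kb of the Eya3 start.

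Eya4, in which mutations cause deafness and dilated cardiomyopathy, had 8 peaks on chromosome 10, and 6 of them were upstream, at 7.0, 50.1, 87.3, 139, 181 and 190 kb. The other 2 lay in introns, 147 and 193 kb downstream. Its closest peak, chr10:23076416-23077084, held a run of 259 bases.

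Dach1, a corepressor expressed in limb, eye and vascular cells, had 12 peaks upstream and 17 downstream, spread over 1.20 Mb of chromosome 14. No Dach1 peak came closer than 31.9 kb to the TSS, and the median distance was 311 kb. The 17 downstream peaks divided into 8 in introns and 9 past the 3' end of the gene, which is 383 kb long. The farthest, at chr14:97750467-97750946, lay 818 kb away, and 7 of the 29 lay beyond 500 kb. All 29 had Dach1 as the closest gene with GENCODE starts too. Within the array 6 neighbouring pairs were separated by less than 5 kb, the tightest being chr14:98663524-98663974 and chr14:98664218-98664861 with 244 bp between them.

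Dach2 is its X-linked paralogue. All 10 peaks lay downstream of the TSS used in the list, at 39.3 to 561 kb, and 9 of them in introns of this gene of 539 kb. The most distant, chrX:110972383-110972844, lay past its end. The widest of all 70 peaks, 1017 bp at chrX:110546200-110547217, was among them. GENCODE holds further starts inside the gene, and 2 of the 10 peaks, beginning at 110647952 and 110682617, lay upstream of the closest of them. With these starts 5 more peaks fell to Dach2, which the list assigned to Klhl4, between 111003536 and 111168052 on the X chromosome.

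**Figure D2:**
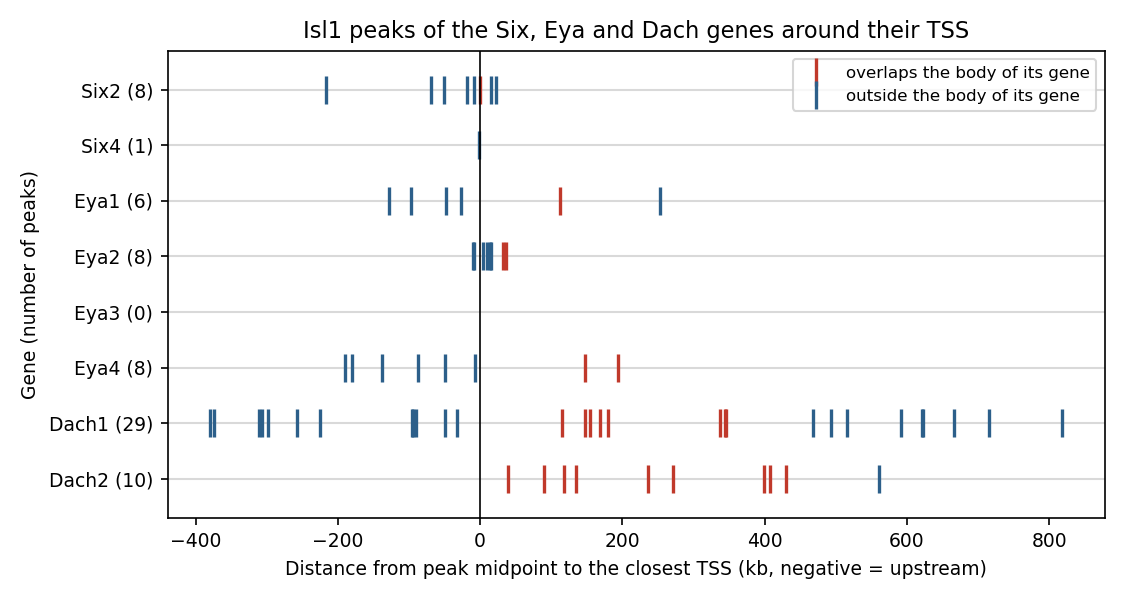
Distance of each peak midpoint from the closest TSS in kb, negative upstream, with 1 row per gene and the number of peaks in brackets. Red ticks are peaks that overlap the body of their gene and blue ticks those outside it; Eya2 and Six4 peaks sit near 0, Dach1 peaks reach from 379 kb upstream to 818 kb downstream, and all Dach2 peaks are downstream of the TSS used in the list.

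Taking the 70 peaks together, 30 were upstream of the TSS (42.9%, 95% Wilson interval 31.9 to 54.5%), beside 47.5% of all peaks in the list. Intervals cover counting error only, and peaks of 1 gene are not independent. Within 10 kb of a TSS lay 6 of the 70 (8.57%, interval 3.99 to 17.5%), beside 15.9% in the list, and within 100 kb lay 29 (41.4%, interval 30.6 to 53.1%), beside 62.5%. The share within 100 kb rested largely on Dach1, with 5 of its 29 peaks in that range, and was 24 of 41 (58.5%, interval 43.4 to 72.2%) without this gene. The median distance was 143 kb, against 58.8 kb in the list, and 69.6 kb without Dach1. By gene, a peak within 10 kb was present for Six2, Six4, Eya2 and Eya4, 4 of 8, against 22.6% of all protein-coding genes. A share by gene depends on the number of peaks, with a median of 8 in the 8 genes and 0 over all protein-coding genes. By peak, the share within 10 kb was below that of the list, as given above.

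Seen on the annotation, 47 of the 70 peaks were intergenic, 21 lay in introns and 2 overlapped a coding exon, those of the Six2 start and of Eya2. None lay in the body of another protein-coding gene. A peak in its own body was found in 6 of the 8 genes, all but Six4 and Eya3, against 22.2% of all genes. As a share of peaks this was 23 of 70 (32.9%, interval 23.0 to 44.5%), beside 22.3% of the list. This share rested largely on Dach2, which gave 9 of the 23 from its 10 peaks. In Dach1 it was 8 of 29 (27.6%). The bodies of Eya1, Eya2, Eya4, Dach1 and Dach2 measured 116 to 539 kb. Neither body length nor the number of peaks per gene was taken into account. When peaks were instead counted by overlap with a gene body, whatever the closest TSS, 24 remained.

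The 70 peaks ranged from 278 to 1017 bp with a median of 490 bp, and those of the list from 175 to 3426 bp with a median of 466 bp. Medians by gene ran from 450 bp for Dach2 to 546 bp for Six2, apart from the single Six4 peak of 848 bp, and the ranges of all genes with several peaks overlapped.

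Counting runs of 25 or more bases, the feature in capitals above, 1 lay within 100 bp of the midpoint in 65 of the 70 peaks (92.9%, interval 84.3 to 96.9%), beside 94.1% of all peaks. Windows of 200 bp centred 1 kb before and after each midpoint had such a run in 3 of 140 (2.14%) and in 3.93% for the list. Over the whole peak 69 of 70 had one. Its length was between 30 and 375 bases in these 69, the longest under the Six2 peak at chr17:86138216-86139014. The median longest run was 106 bases, and 108 in the list. On the sense strand of the gene 28 runs were purine and 41 pyrimidine. The longest run covered the midpoint in 42 of the 69 peaks (60.9%), beside 68.5% of the peaks with a run in the list. When any run of that length counted, the midpoint was covered in 70.0% of the 70 peaks and 70.77% of the list. Whether the runs took part in the precipitation, the mapping or the peak call was not tested.

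**Figure D3:**
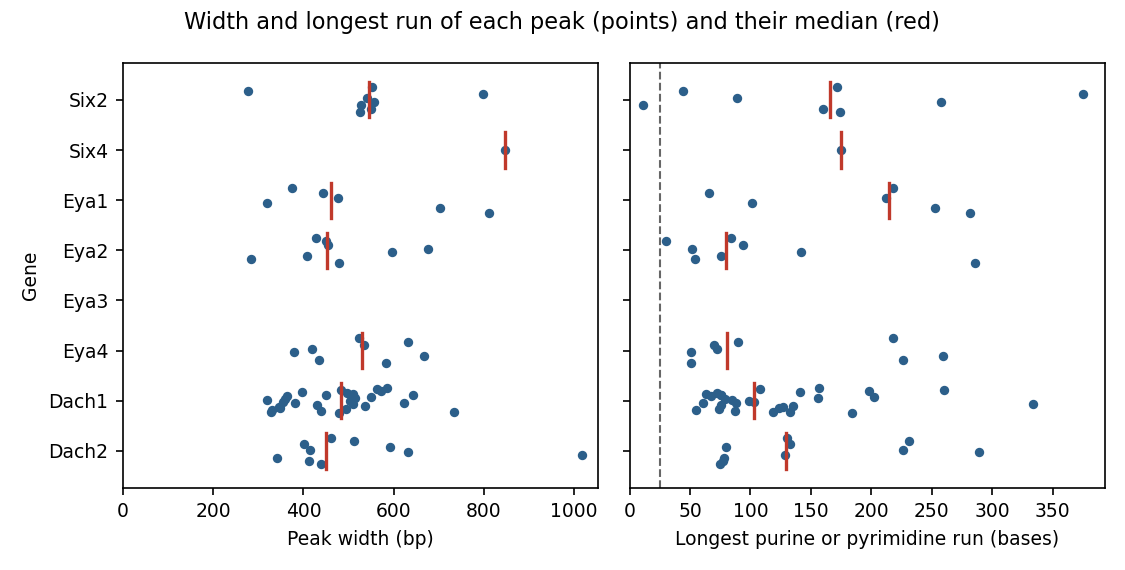
Width of each peak in bp (left) and length of the longest uninterrupted purine or pyrimidine run within it in bases (right), with 1 point per peak, a red bar at the median of each gene and a dashed line at 25 bases. Widths overlap between the genes, and the run of 11 bases at the Six2 start is the only point left of the dashed line.

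**Figure D4:**
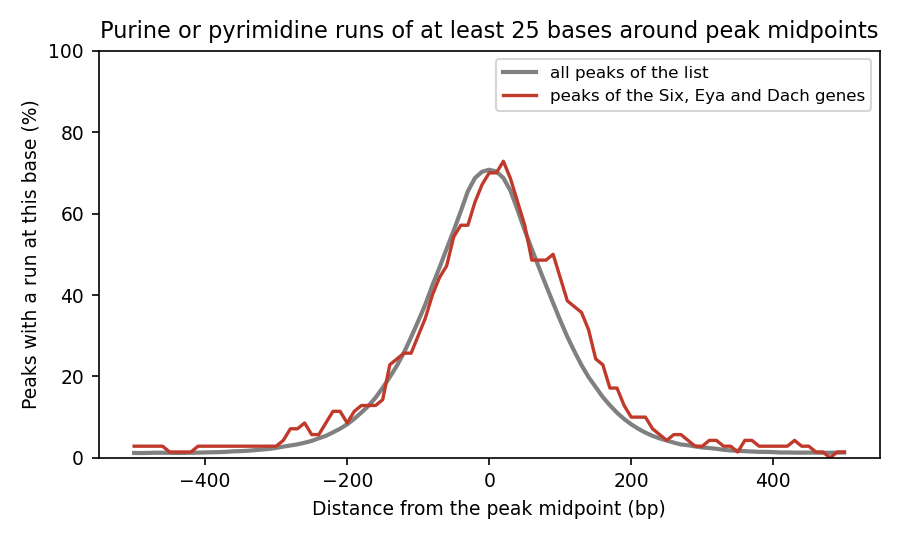
Percentage of peaks with an uninterrupted run (25 bases or more) at each position, against the distance from the peak midpoint in bp, negative towards lower coordinates. The red line shows the 70 peaks assigned to the 8 genes and the grey line all 48295 peaks; both reach about 70% at the midpoint, 70.0% and 70.77%, and fall to 10.0% and 8.24% at 200 bp.

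Runs of at least 50 bases lay under a peak in unequal shares of the territories. In the Eya2 territory 10 of 19 were under a peak (52.6%), and Dach2 with 21 of 50 (42.0%) and Dach1 with 34 of 82 (41.5%) followed. Six4 had 2 of 5, Eya1 15 of 42 (35.7%), Six2 5 of 16 (31.2%), Eya4 9 of 30 (30.0%) and Eya3 0 of 7. Of the 176892 such runs in the genome 30.6% were under a peak. Runs without a peak thus remained in each of these territories.

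A peak without a run near its midpoint was found for 5 of the 8 genes, against 8.53% of all protein-coding genes. There was 1 each in Six2, Eya2, Eya4, Dach1 and Dach2. These shares by gene depend on the number of peaks, with a median of 8 in the 8 genes and 0 over all protein-coding genes. By peak the 70 were close to the list, with a run in 92.9% beside 94.1%. Outside the Six2 start, the run was present elsewhere in the peak. The Eya2 exon peak held 30 bases, the Eya4 intron peak at chr10:22876014-22876597 held 51, the Dach2 intron peak at chrX:110810693-110811284 held 80 and the Dach1 peak at chr14:98943165-98943728, 374 kb upstream, held 108. The Six2 start was also the one peak of 70 with a GC content over 50% and a ratio of observed to expected CpG over 0.6 (1.43%, interval 0.253 to 7.66%), beside 1.70% of the list.

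Letters recognised by homeodomain proteins were then counted on both strands. TAAT was present within 100 bp of the midpoint in 30 of 70 peaks (42.9%, interval 31.9 to 54.5%), beside 35.3% of the list. Without Dach1 this was 14 of 41 (34.1%, interval 21.6 to 49.5%). Over the whole peak TAAT was present in 81.4% of the 70, beside 82.8%. In the windows at 1 kb TAAT stood in 79.3%, beside 73.4% for the list. In both sets it was thus less frequent at the midpoint, where the runs lie, than beside the peaks. By gene it was in the window of 16 of 29 Dach1, 5 of 10 Dach2, 5 of 8 Eya4, 3 of 8 Six2 and 1 of 8 Eya2 peaks. Of the 6 Eya1 peaks 0 had it, which allows a share of up to 50.0%, and Six4 had none. The longer CTAATG, which contains TAAT, was in the window of 1 peak (1.43%, interval 0.253 to 7.66%), beside 2.64% in the list, and over the whole peak in 9 of 70 (12.9%), beside 11.5%. TCAGGTTTC, the MEF3 letters bound by Six4, occurred in 0 of 70 peaks, which allows a share of up to 4.29% (3 counts of 70), and in 0.424% of the list. GAGAGAGA or its complement, made of purines or of pyrimidines alone as the runs are, was in the window of 39 peaks (55.7%), beside 55.0% of the list.

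Other genes of the network were counted in the same way, beside the 45.5% of all protein-coding genes with a peak. Their territories were uneven too, from 24.5 kb for Pax4 to 431 kb for Pax1, from 15.6 kb for Aes to 1075 kb for Tle4, and from 44.8 kb for Fgf8 to 511 kb for Fgf10. Among the Pax genes, which act upstream of the circuit in several organs, 7 of 9 had one, led by Pax3 and Pax8 with 10 peaks each, and Pax4 and Pax5 had none. Among corepressors and related cofactors 7 of 8 had one. The groucho homologues Tle1, Tle4 and Tle3 had 15, 14 and 11 peaks, and Sobp had 6. Ski and Skil, relatives of Dach, had 1 peak each, 0.308 and 0.494 kb upstream of the TSS, and like the Six2 start these held no run and were GC-rich, at 86.4 and 81.6%. Among partners and targets of the circuit 4 of 6 had one. Sall1, a zinc finger gene of kidney development, had 15 peaks, all upstream, the ligand gene Fgf10 had 8 and Gdnf had 5. Tbx1, a T-box regulator of the pharyngeal SHF, had 1 peak, 1.82 kb upstream, while the ligand gene Fgf8 and Myog, a muscle regulator, had none.

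By number of peaks, median distance, median width and share upstream, the 3 genes most like Dach1 among 2128 genes with at least 5 peaks were Ppargc1a, Spanxn4 and Dcc. Ppargc1a, a metabolic coactivator, had 30 peaks at a median distance of 227 kb with 33.3% upstream, and Dach1 had 41.4% upstream. Spanxn4 had 27 peaks at 252 kb and Dcc, a netrin receptor, had 32 at 290 kb. Their distances to Dach1, in units of SD over those genes, were 0.42, 0.43 and 0.48. The comparison rests on 1 sample.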

How the data were processed

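Isl1 ChIP-Seq was analysed for 1 pooled sample of mouse embryos. Per the study's methods and the labels, the authors mapped reads with bowtie2 to mm9, marked duplicates by Picard 1.136, used MACS for the peaks, dropped blacklisted regions and named the gene of the nearest TSS by HOMER's annotatePeaks.pl. The deposited list holds positions and distances in bp and gene names, with no reads, heights, fold or score. The methods describe intersecting peaks of replicates with Bedtools, without saying whether this list is such an intersection.

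A repeated header row was left out, and rows were matched by symbol. Positions are printed as deposited, since whether starts count from 0 or 1 is not stated. Sequences were read as 1-based and inclusive from NCBIM37, the same assembly as mm9, with pysam 0.24.0 and Python 3.11.15. GENCODE vM1 gave gene bodies, starts and territories. A gene body overlap needed 1 bp. Wilson intervals used 95% confidence and scipy 1.17.1, and the limit for a count of 0 was set at 3 counts. The scripts were tested on simulated data. No test was made, because 1 sample has no replicate error.

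The members and lists were chosen with earlier results of these data known. Named were all 8 members, Six3, Six5, Six6, Pax genes, cofactors, partners, genes sharing a locus with a member, and the 3 genes whose 4 peak measures, each divided by its SD, were nearest to those of the member with the most peaks. Alternatives changed the peaks used, the distance limit, the assignment, the run length and the part of the peak. Supplementary tables of the study were not used, and some results and sequences are not reported here.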

Additional observations from a re-analysis of the deposited data

How the results depend on the processing

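Of 54 values recomputed under 12 alternatives, 29 moved by less than the error set for them and 25 moved by more. No paired analysis was possible because 1 ChIP sample was analysed and its peak list comes from no test. With peaks wider than the median of the list, 39 peaks were assigned to the genes, with a median width of 553 bp and 10.7 peaks per Mb. With peaks that held no run within 100 bp of the midpoint, 5 peaks in 5 genes remained. Outside the Six2 start, these held a run elsewhere in the peak. The 5 peaks had a median width of 563 bp, with 20.0% upstream, 80.0% in their own gene body, 80.0% with TAAT and 1.38 peaks per Mb. Within 10 kb of the TSS there were 6 peaks in 4 genes, with a median width of 542 bp, 66.7% upstream, 16.7% in the gene body, 83.3% with a run and 16.7% with TAAT. Within 100 kb there were 29 peaks, 62.1% upstream and 17.2% in the gene body. Counted by overlap with the gene body there were 24 peaks, all of which are in a gene body by construction, so no share was computed. Over the whole peak 98.6% had a run and 81.4% TAAT. Leaving out Dach1, chosen after seeing the data, left 41 peaks, a median distance of 69.6 kb and 58.5% within 100 kb. These settings use fewer or longer sequences by construction. The number of genes with a peak was 7 with GENCODE starts, with 75 peaks. Without read counts, heights or a second list, no peak could be weighed by its strength, and the absence of an Eya3 peak says only that none was listed.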
